A study of Mus musculus with 10 samples.

Results

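The genes described here encode the factors that start and lengthen proteins on the cytosolic ribosome, measured in bone marrow hematopoietic stem and progenitor cells (HSPCs) of irradiated mice. They were chosen by name: all genes whose symbol started with Eif or Eef, leaving out the 4 eIF2 kinases (Eif2ak1 to Eif2ak4) and 11 pseudogene symbols containing "-ps". This gave 67 of the 55573 genes in the count tables, and all 67 were found in GENCODE M21 (mouse build GRCm38). The study compared 5 RNA-seq libraries from mice given saline with 5 from mice given epidermal growth factor (EGF), a protein that binds the receptor EGFR and is known to support recovery of blood stem cells after radiation. All mice were C57BL/6 (C57BL/6J in the series' text), were 16 weeks old and had received 500 cGy of whole-body radiation, so both groups were irradiated and neither is an untreated control. The marrow was taken 6 weeks after the irradiation, and both agents were injected under the skin. Nothing in the labels ties a library to a mouse of its own, so p-values here reflect how far these libraries spread, and part of that spread may be technical.

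Initiation begins when eIF2, carrying GTP and the initiator tRNA, joins the small ribosomal subunit together with eIF1, eIF1A, eIF3 and eIF5. The eIF4F complex (the cap-binding protein eIF4E, the scaffold eIF4G and the helicase eIF4A) brings the mRNA, the assembly scans to the start codon, and eIF5B joins the large subunit. eEF1A then delivers each aminoacyl-tRNA and eEF2 moves the ribosome along by a codon. Among HSPCs, the stem cells are known for a low rate of protein synthesis, and their function is sensitive to that rate being raised or lowered. Several of these factors, like nearly all ribosomal proteins, are encoded by mRNAs that begin with a terminal oligopyrimidine (TOP) stretch, an unbroken run of C and T just at the transcription start, through which mTORC1 and the protein LARP1 control them.

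Sequences around the RefSeq transcription start (GRCm38.p6) are shown for the factors whose values are discussed most, because this stretch is where a TOP run would lie. Each holds 10 bases before the start and 20 from the start on, 30 in all, with the longest unbroken run of C and T in capitals. The first 5 hold a run of at least 10 such bases and the last 2 do not.
Eef1a1, chr9:78481705-78481734, minus strand: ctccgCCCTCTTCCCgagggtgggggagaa
Eif3f, chr7:108934405-108934434, plus strand: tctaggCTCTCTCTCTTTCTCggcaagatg
Eif2s3x, chrX:94212632-94212661, minus strand: gagcaTTTTCCTTTTCTCTCCgagcaagat
Eif3l, chr15:79075213-79075242, plus strand: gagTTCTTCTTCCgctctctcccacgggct
Eif2b5, chr16:20498807-20498836, plus strand: CTCTTTCTCTCCCTgcaactacaccttcgc
Eef2, chr10:81176621-81176650, plus strand: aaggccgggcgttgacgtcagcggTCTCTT
Eif4a1, chr11:69672404-69672433, minus strand: gtaacgTCacgtcgagttgcagagcgccgg
Of the 51 genes of the list with a RefSeq start site in the table, 8 (15.7%) held such a run at 1 or more of their sites, against 5.59% of 27025 genes. The 8 include Eif2c5, which is annotated as a lincRNA. The run was sought on the transcribed strand only, as letters in this window, and its absence says only that these letters are not in this window. Its presence does not make a TOP mRNA, because bases before the annotated start are not part of the annotated mRNA. In Eif2b5 and Eif3l most of the run lay before the start, and in Eif4enif1 all of it. The run of Eef2 reached the end of the window and may be longer.

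No translation factor gene passed the test between EGF and saline. The lowest adjusted p among the 61 factors with enough counts to be tested was 0.552 (edgeR's quasi-likelihood test, Benjamini-Hochberg adjusted across all 12874 genes tested), beside a background of 0.00777% of genes higher with EGF (a single gene) and 0% lower. At an unadjusted p under 0.05, 10 factors were lower with EGF and 1, Eif4a2, was higher, where the background over all genes tested was 2.73% lower and 6.14% higher. The 10 were Eif1a, Eif1b, Eif2b5, Eif3b, Eif3d, Eif3h, Eif3l, Eif4a1, Eif4g2 and Eif5a, all of them initiation factors or eIF5A. With 1 library left out, the number lower was 5 without EGF replicate 3, 6 without saline replicate 4 and 21 without EGF replicate 5, and the share over all genes was then 2.04%, 1.56% and 7.39%. It was 7 to 12 without any other library (1.7% to 4.05% of all genes), and the number higher was 0 to 2 (3.23% to 8.38%). In DESeq2, 12 factors were lower and 0 higher at an unadjusted p under 0.05 (background 3.09% and 7.22%), and 0 passed its adjustment (background 0.112% lower and 0.0973% higher). In limma-voom with quality weights, which gives less weight to libraries that deviate, 20 were lower and 1 higher at an unadjusted p under 0.05 (background 7.55% and 7.74%), and again 0 passed the adjustment (0.0311% and 0.0621%).

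The differences were small and mostly of one sign. The median log2 fold change (EGF over saline) of the 61 factors was -0.17, beside -0.01 over all genes tested. Of the 61, 44 lay below 0 and 17 above, where 51.5% of all genes lay below. In 7 factors the highest EGF library was under the lowest saline library (Eif1, Eif1a, Eif3b, Eif3l, Eif4a1, Eif4e and Eif5a2), against 1.65% of all genes, and in 0 did they all lie above, against 1.62%. The number wholly below was 11 without saline replicate 2 and 14 without EGF replicate 2, and over all genes the share was then 2.75% and 3.8%. These counts describe the list and carry no test of their own.

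The summed share of the 67 genes in each library's counts was 1.85%, 1.88%, 1.89%, 1.95% and 1.93% in saline replicates 1 to 5 and 1.80%, 1.82%, 1.69%, 1.71% and 1.73% in EGF replicates 1 to 5. Every EGF library lay below every saline library on this raw share, with 1.75% ± 0.0565 against 1.90% ± 0.0401 (SD, n = 5 each). The separation did not hold once the libraries were scaled by TMM (edgeR's correction for differences in library composition). On that scale, CPM values (counts per 1e6 counts) summed over the factors ran from 18181 to 20192 with saline and from 16318 to 18889 with EGF, and the ranges overlapped. Together Eef1a1 and Eef2 made up 38.0% of the factors' counts. EGF replicate 5 had the highest scaled sum of the EGF libraries although both of these genes were at their lowest there.

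EGF replicate 5 stood apart from all other libraries, and this bears on nearly every factor. It had counts in 12731 genes, against 18734 to 20046 in the other 9 libraries, at a total depth within the same range (6805106 to 8370820 counts). Malat1, a nuclear RNA, took 1.62% of its counts, against 0.336% to 0.444% with saline. It took 0.521% and 0.387% in EGF replicates 1 and 2, and 0.908% and 0.905% in EGF replicates 3 and 4. Mitochondrial genes took 7.73% of its counts, at least 8.38% of those of each other EGF library and 5.89% to 7.43% with saline. The mitochondrial share was highest in EGF replicates 3 and 4. Of the 61 factors, 49 (80.3%) lay outside the range of the other 9 libraries in EGF replicate 5, 19 above and 30 below, and over all genes tested the share was 81.3% (33.7% above and 47.7% below). In the other libraries between 2 and 13 factors lay outside, and between 8.55% and 17.8% of all genes. The part of RNA quality in the factor values was not tested. Fold changes without EGF replicate 5 are given beside those with it. EGF replicates 3 and 4, with their raised Malat1 and mitochondrial shares, remain in those fits.

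Without EGF replicate 5 the factors still passed no adjusted threshold (0 of 61, background 0.0305% in each direction over 13104 genes). At an unadjusted p under 0.05, 21 were lower and 2 (Eif4a2 and Eef2k) higher, against a background of 7.39% and 8.38%, and all 10 factors lower with all libraries were among the 21. The median was -0.16, beside -0.0002 over all genes, and 49 factors lay below 0, where 50% of all genes did. Without it 7 factors turned from above to below 0 and 2 (Eefsec and Eef1akmt4) from below to above. In 8 factors the remaining EGF libraries all lay under the saline range and in 0 above it, against 2.46% and 2.5% of all genes. These counts use CPM rescaled over the remaining libraries. On that scale Eif4g2 was among the 8 and Eif3b was not, the reverse of the CPM printed for them below. The count of 21 rests on the libraries kept: with only EGF replicates 1 and 2 left, 6 factors were lower and 1 higher (background 3.14% and 3.29%), 0 passed the adjustment (0% and 0.00736%), 8 lay wholly under and 1 wholly above the saline range (5.53% and 6.11%), and the median was -0.07.

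**Figure D1:**
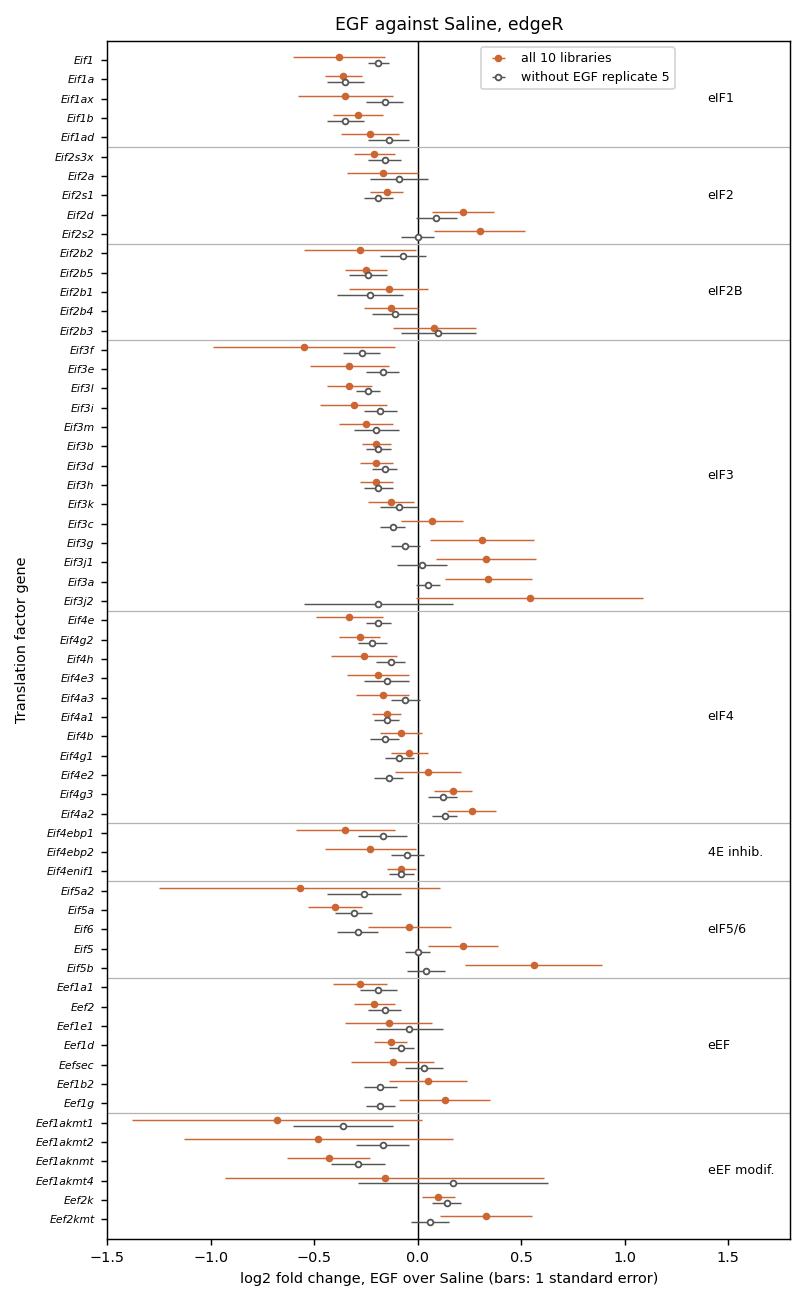
Log2 fold change (EGF over saline, horizontal axis) of the 61 factors tested, ordered by role, with all 10 libraries (filled) and without EGF replicate 5 (open); bars are 1 standard error from edgeR. Most filled points lie left of 0, with a median of -0.17, and the bars of Eif3f and Eif5b, in which EGF replicate 5 lay far from the other libraries, are wider with that library than without it.

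eIF1 and eIF1A hold the ribosome in its scanning state and guard the choice of start codon. The group listed for them held Eif1, Eif1b, Eif1a and Eif1ax, with Eif1ad, whose place in scanning is not established. All 5 genes lay below 0, with 2 lower at an unadjusted p under 0.05 (3 without EGF replicate 5). Their median log2 fold change was -0.35 (-0.19 without EGF replicate 5). Over all genes, 2.73% were lower at that p, and 7.39% without EGF replicate 5. Summed over the 5 genes, the level was 408 to 450.4 CPM with saline and 220.3 to 386 CPM with EGF, so the groups did not overlap. Eif1a, which encodes an eIF1A, was at 85.4, 67.6, 89.6, 78.6 and 75.6 CPM in saline replicates 1 to 5 and at 63.2, 60.3, 59.9, 65.0 and 61.8 CPM in EGF replicates 1 to 5. All EGF libraries lay below the lowest saline library, saline replicate 2, and EGF replicate 5 lay among the other EGF libraries. The means were 79.4 ± 8.60 and 62.0 ± 2.11 CPM (SD, n = 5), with a log2 fold change of -0.36 (SE 0.09, unadjusted p = 0.00276 and adjusted p = 0.552 by edgeR), the lowest p of any factor. Without EGF replicate 5 it was -0.35 (SE 0.09).

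Eif1, the start codon fidelity factor itself (chr11:100319885-100322096), was at 165, 155, 146, 157 and 148 CPM with saline and 135, 139, 134, 134 and 50.6 CPM with EGF. The first 4 EGF libraries lay close together just under the saline range, and EGF replicate 5 far under it. It had a log2 fold change of -0.38 (SE 0.22, unadjusted p = 0.117) with that library and -0.19 (SE 0.05, unadjusted p = 0.00400, adjusted p = 0.174) without it, both by edgeR. Its close relative Eif1b was at 37.2, 37.2, 35.5, 39.2 and 33.1 CPM with saline and 25.2, 29.7, 28.0, 31.7 and 34.6 CPM with EGF. Here EGF replicate 5 was the highest EGF library and the only one to reach the saline range. Its log2 fold change came to -0.29 (SE 0.12, unadjusted p = 0.0342), and -0.35 (SE 0.09) without EGF replicate 5. EGF replicate 5 was thus the lowest EGF library for Eif1 and the highest for Eif1b, and there the ratio of Eif1b to Eif1 counts was 0.684, against 0.187 to 0.250 in the other 9 libraries.

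eIF2 carries the initiator tRNA, and phosphorylation of its alpha subunit is the switch through which cells under stress reduce initiation. The group tested for eIF2 and initiator tRNA delivery held Eif2s1, Eif2s2 and Eif2s3x, with Eif2a and Eif2d, which do not encode eIF2 subunits. None of these 5 genes reached an unadjusted p under 0.05 with all libraries. Without EGF replicate 5 there was 1, Eif2s1, which was lower (7.39% of all genes were). The median log2 fold change of the group was -0.15 (-0.09 without EGF replicate 5). Eif2s1, the alpha subunit that is phosphorylated, was at 132, 131, 155, 152 and 145 CPM with saline and 128, 133, 125, 116 and 143 CPM with EGF. The groups overlapped through the 2 lowest saline libraries and EGF replicates 2 and 5, and the log2 fold change was -0.15 (SE 0.08, unadjusted p = 0.103), and -0.19 (SE 0.07, unadjusted p = 0.0185, adjusted p = 0.228 by edgeR) without EGF replicate 5. Eif2s3x, the gamma subunit that holds GTP and the tRNA, was at 100.3, 91.7, 103, 108 and 110.3 CPM with saline and 105, 89.1, 87.5, 86.9 and 74.8 CPM with EGF. Of the EGF libraries only replicate 1 lay inside the saline range, and the log2 fold change was -0.21 (SE 0.10, unadjusted p = 0.0546), and -0.16 (SE 0.08) without EGF replicate 5. Its Y-linked copy Eif2s3y had 0 counts in all 10 libraries, which allows up to 0.358 to 0.441 CPM (3 counts in a library, counting error only).

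eIF2B reloads eIF2 with GTP and is the complex that phosphorylated eIF2 blocks. Of its 5 subunits 4 lay below 0, with a median of -0.14 (-0.11 without EGF replicate 5). Eif2b5, the catalytic epsilon subunit (chr16:20498817-20509323), was at 73.4, 68.2, 84.5, 87.2 and 87.3 CPM with saline and 68.0, 75.9, 63.6, 63.7 and 64.7 CPM with EGF. Saline replicates 3 to 5 lay above all EGF libraries, while saline replicates 1 and 2 lay within the EGF range. This gave a log2 fold change of -0.25 (SE 0.10, unadjusted p = 0.0268), and -0.24 (SE 0.09) without EGF replicate 5. Eif2b2, the beta subunit, was at 19.7 to 25.8 CPM with saline and 19.5 to 23.9 CPM in EGF replicates 1 to 4, but at 7.28 CPM in EGF replicate 5, so its log2 fold change of -0.28 (SE 0.27) became -0.07 without that library.

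eIF3 is the largest initiation factor, a scaffold that binds the small subunit and bridges it to eIF4G. Of its 14 genes 9 lay below 0 and 5 above (median -0.20), and 4 reached an unadjusted p under 0.05, all lower (2.73% of all genes were). Without EGF replicate 5, 12 lay below 0 (median -0.17) and 7 were lower at that p, where 7.39% of all genes were. Eif3l (chr15:79075179-79094405) was at 196, 199.7, 214, 218 and 214 CPM with saline and 181, 185, 164, 175 and 125 CPM with EGF. Every EGF library lay below every saline library, and EGF replicate 5 was the lowest. By edgeR, the log2 fold change was -0.33 (SE 0.11, unadjusted p = 0.00982), and -0.24 (SE 0.06, unadjusted p = 0.00110, adjusted p = 0.137 by edgeR) without EGF replicate 5. Eif3l also had the lowest adjusted p of any factor under any of the settings tried, 0.101 in limma-voom with library quality weights.

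Eif3b, a core subunit that takes part in scanning, was at 356, 335, 370.1, 378 and 391 CPM with saline and 321, 321, 307, 335 and 316 CPM with EGF. The groups met at 335 CPM, where EGF replicate 4 lay just under saline replicate 2. As a log2 fold change, the difference was -0.20 (SE 0.07, unadjusted p = 0.0147), and -0.19 (SE 0.06) without EGF replicate 5. Eif3d, a subunit that can itself bind the mRNA cap, and Eif3h both had a log2 fold change of -0.20 (SE 0.08). Without EGF replicate 5 these were -0.16 (SE 0.06) and -0.19 (SE 0.07). In Eif3d, 43.3% of the exonic bases lie opposite the gene Gm17638 on the other strand, and without a stated strand setting reads of the pair cannot be told apart.

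In Eif3a and Eif3f EGF replicate 5 lay far from the other libraries, in opposite directions. Eif3a, the scaffold of the complex, was at 1058, 1041, 1174, 1164 and 1097 CPM with saline and 1085, 1179, 1122, 1200.4 and 2401 CPM with EGF. The first 4 EGF libraries lay in or just above the saline range and replicate 5 far above it. Its log2 fold change of 0.34 (SE 0.21) was 0.05 (SE 0.06) without that library. Eif3f, chosen for mention after its values were seen, was the opposite case, at 189.9, 185, 178, 203 and 194 CPM with saline and 173, 184, 148, 125 and 16.7 CPM with EGF. EGF replicate 5 was 11.4 times below the saline mean, from 119 counts, and the log2 fold change of -0.55 (SE 0.44) was -0.27 (SE 0.09, unadjusted p = 0.0141) without it. EGF replicates 1, 3 and 4 also lay below the saline range.

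**Figure D2:**
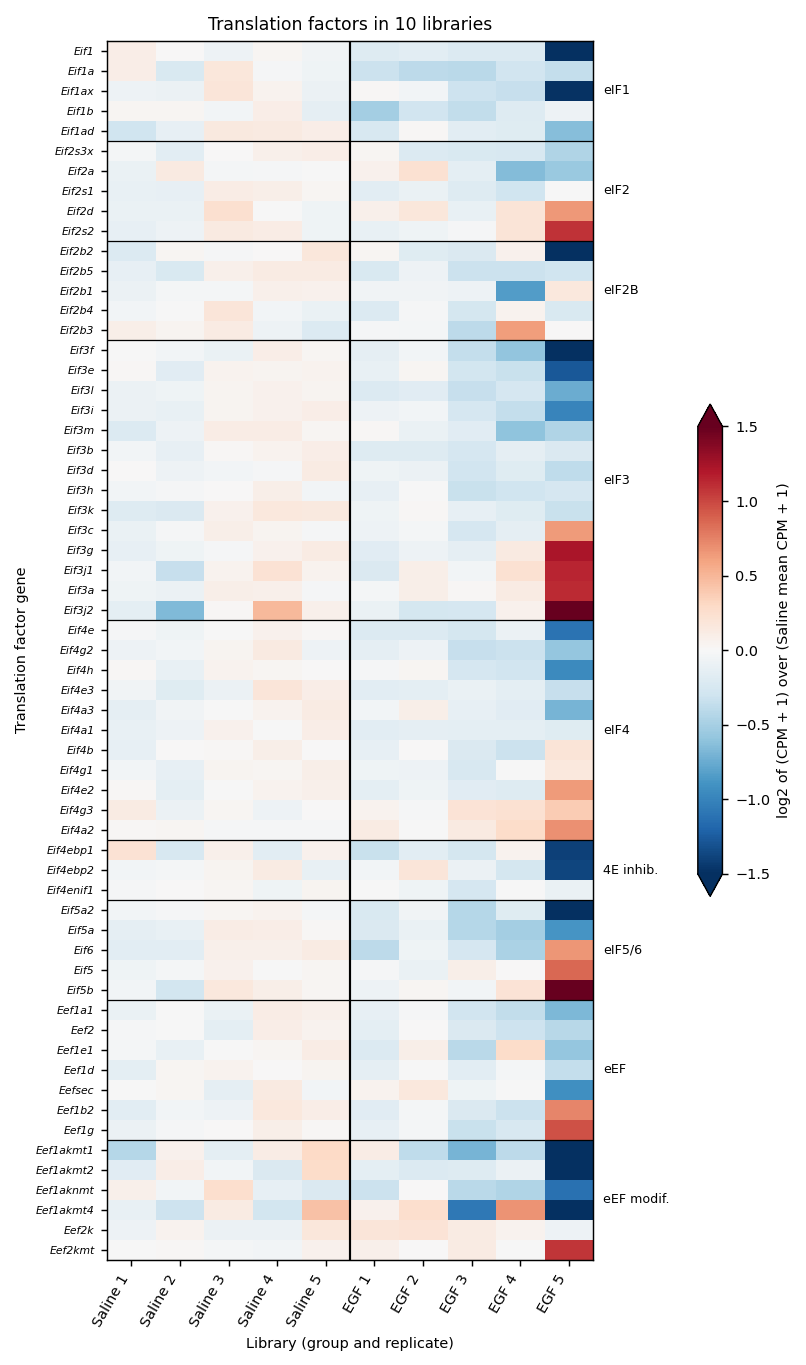
Each row is a factor and each column a library, coloured by the log2 ratio of its CPM to the mean of the 5 saline libraries, with 1 added to both. The colour scale ends at a log2 ratio of 1.5 in either direction, so values beyond it look alike. EGF replicate 5 carries the strongest colours in both directions, with 15 factors above 1.5 times the saline mean and 22 below that mean divided by 1.5, while across EGF replicates 1 to 4 only 7 factors passed either limit in any library.

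eIF4F reads the cap and unwinds the leader of the mRNA. Of the 11 eIF4 genes tested 8 lay below 0 and 3 above (median -0.15, and -0.14 without EGF replicate 5), with 2 lower and 1 higher at an unadjusted p under 0.05 (4 lower and 1 higher without that library). The shares over all genes were 2.73% lower and 6.14% higher, and 7.39% and 8.38% without EGF replicate 5. Eif4g2, which encodes DAP5, an eIF4G relative that does not bind eIF4E, was at 924, 952, 1008, 1068 and 929 CPM with saline and 889, 927, 768, 781 and 653 CPM with EGF. EGF replicates 1, 3, 4 and 5 lay below all saline libraries, and EGF replicate 2 lay between saline replicates 1 and 5. It had a log2 fold change of -0.28 (SE 0.10, unadjusted p = 0.0195), and -0.22 (SE 0.07) without EGF replicate 5. Eif4e, the cap-binding protein (chr3:138526179-138559696), was at 84.4, 81.8, 85.1, 89.4 and 86.9 CPM with saline and 74.4, 74.2, 71.2, 80.7 and 39.2 CPM with EGF. All EGF libraries were lower than all saline libraries, replicate 4 by little and replicate 5 by the most, with a log2 fold change of -0.33 (SE 0.16, unadjusted p = 0.0685), and -0.19 (SE 0.06, unadjusted p = 0.0122) without EGF replicate 5.

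The helicase paralogs eIF4A1 and eIF4A2 had log2 fold changes of opposite sign. Eif4a1, the main helicase (chr11:69666936-69672423), was at 487, 499.8, 550.0, 523 and 564 CPM with saline and 470.3, 478, 474, 476 and 461 CPM with EGF. The EGF libraries lay within a narrow band just below the lowest saline library, and the log2 fold change was -0.15 (SE 0.07, unadjusted p = 0.0448), the same without EGF replicate 5. Eif4a2, a paralog linked to repression by microRNAs, was at 205, 206, 199, 200.1 and 199.9 CPM with saline and 220.3, 201, 221, 245 and 325 CPM with EGF. EGF replicate 2 lay inside the saline range and the other 4 above it, with a log2 fold change of 0.26 (SE 0.12, unadjusted p = 0.0486), and 0.13 (SE 0.06, unadjusted p = 0.0481) without EGF replicate 5. The ratio of Eif4a2 to Eif4a1 counts was 0.421, 0.412, 0.361, 0.383 and 0.355 with saline and 0.469, 0.420, 0.467, 0.515 and 0.704 with EGF. Only EGF replicate 2 fell within the saline range of this ratio. The ratio was examined after the values of both genes were known and carries no test. Near-identical copies could split reads of both: 28.4% of the 50-base stretches of Eif4a1 and 13.6% of those of Eif4a2 also occur in other annotated genes.

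Cap-binding relatives showed how far a single library can move a ratio. Eif4e2, a repressive cap-binding protein, stood at 0.945 to 1.04 times the counts of Eif4e with saline and 0.925 to 1.10 times in EGF replicates 1 to 4, but at 3.40 times in EGF replicate 5. Eif4e3, the third of the family, stood at 0.222 to 0.265 times Eif4e with saline, 0.231 to 0.271 times in EGF replicates 1 to 4 and 0.411 times in EGF replicate 5. The oocyte form Eif4e1b had 0 counts in all libraries.

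The proteins that sequester eIF4E, the 4E-BPs, are released or held according to phosphorylation by mTORC1. All 3 tested genes of this group lay below 0 and none reached an unadjusted p under 0.05, with or without EGF replicate 5. Eif4ebp1 was at 35.2, 25.3, 31.7, 27.0 and 31.6 CPM with saline and 23.8, 26.9, 24.97, 31.4 and 10.8 CPM with EGF. EGF replicates 2 and 4 lay within the saline range, and the log2 fold change was -0.35 (SE 0.24), and -0.17 (SE 0.12) without EGF replicate 5. Eif4ebp2 was at 135 to 158 CPM with saline, 121 to 166 CPM in EGF replicates 1 to 4 and 55.6 CPM in EGF replicate 5. Its log2 fold change was -0.23 (SE 0.22), and -0.05 (SE 0.08) without replicate 5. Eif4enif1, which encodes the shuttling protein 4E-T, was at a log2 fold change of -0.08 (SE 0.07, and SE 0.06 at the same value without EGF replicate 5), and Eif4ebp3 had 0 to 7 counts a library and was not tested.

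**Figure D3:**
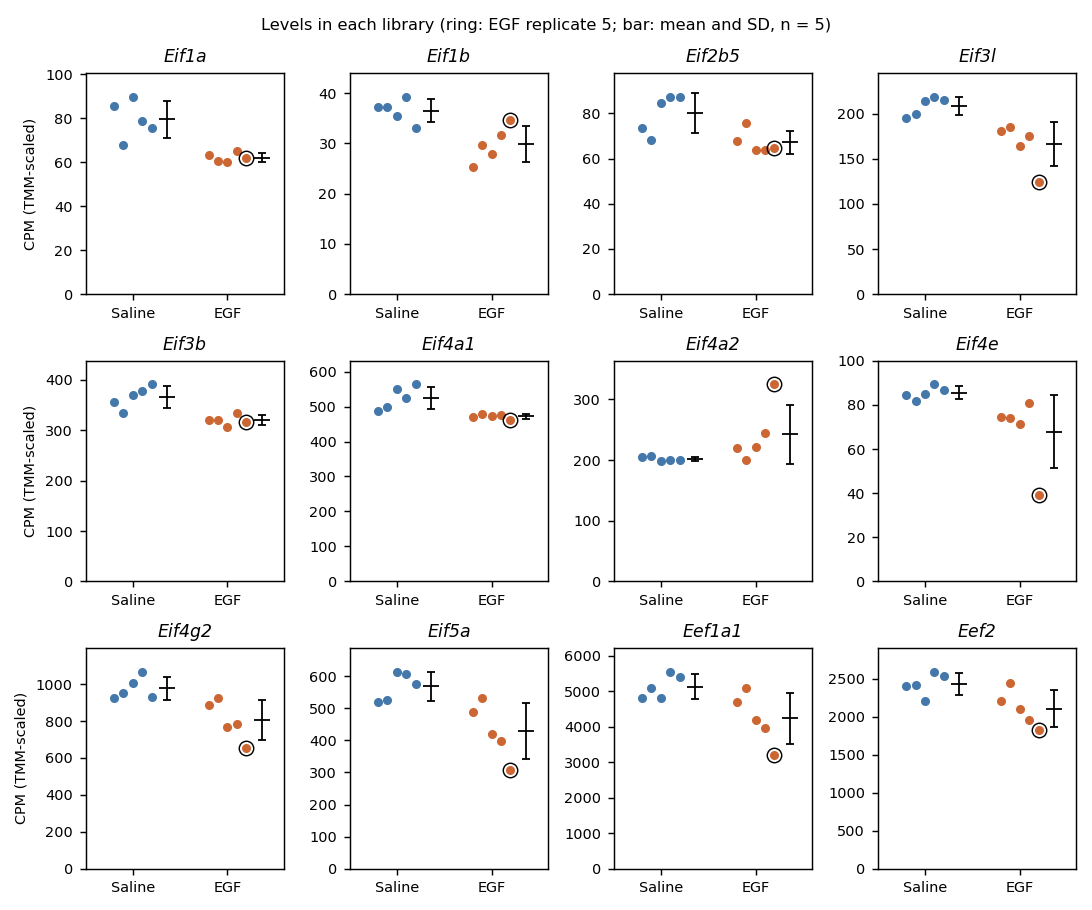
Level of 12 factors in each library (vertical axes, TMM-scaled CPM, each from 0), with saline in blue, EGF in orange, a ring around EGF replicate 5, and the mean and SD of 5 libraries beside each group. Eif1a, Eif3l and Eif4a1 show groups that do not meet, Eif4a2 and Eif1b show where single EGF libraries enter the saline range, and Eif5a and Eef1a1 show EGF replicates 1 and 2 within or near it.

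eIF5A eases the ribosome past difficult peptide bonds and is the only protein known to carry hypusine, a modified lysine. Eif5a (chr11:69916714-69921958) was at 519, 525, 614, 607 and 575 CPM with saline and 488, 532, 420.4, 397 and 308 CPM with EGF. EGF replicates 3 to 5 lay well under the saline range, replicate 1 slightly under it and replicate 2 inside it. With 568 ± 44.7 against 429 ± 86.3 CPM (SD, n = 5), the log2 fold change was -0.40 (SE 0.13, unadjusted p = 0.0118, adjusted p = 0.552 by edgeR), and -0.31 (SE 0.09, unadjusted p = 0.00412) without EGF replicate 5. Its paralog Eif5a2 was at 5.71 to 6.18 CPM with saline, 4.14 to 5.67 CPM in EGF replicates 1 to 4 and had 0 counts in EGF replicate 5. Between 0 and 51 counts a library stood behind that gene, so its log2 fold change of -0.57 had an SE of 0.68, and was -0.26 (SE 0.18) without EGF replicate 5.

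The factors of subunit joining gave no common direction. Eif5b, the GTPase that joins the subunits, was at 261, 221, 299.95, 287 and 275 CPM with saline and 255, 275, 262, 310.5 and 877 CPM with EGF. EGF replicates 1 to 3 lay inside the saline range, replicate 4 just above it, and replicate 5 at 3.26 times the saline mean. The log2 fold change of 0.56 (SE 0.33), the largest positive value among the factors, was 0.04 (SE 0.09) without that library. Eif6, which keeps free large subunits from joining, was at 62.4, 62.6, 73.8, 73.8 and 76.4 CPM with saline and 52.9, 67.0, 58.6, 50.1 and 111 CPM with EGF. EGF replicates 1, 3 and 4 lay below the saline range, replicate 2 inside it and replicate 5 above it. Its log2 fold change came to -0.04 (SE 0.20), and -0.29 (SE 0.10, unadjusted p = 0.0120, adjusted p = 0.212 by edgeR) without EGF replicate 5, so that library decides both its size and its standing.

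None of the 7 elongation factors tested reached an unadjusted p under 0.05 with all libraries. Without EGF replicate 5 there were 2, Eef1g and Eef1b2, both lower (7.39% of all genes were). The median log2 fold change was -0.13 with all libraries and -0.16 without it. Eef1a1, which delivers aminoacyl-tRNA, was at 4806, 5091, 4799, 5558 and 5406 CPM with saline and 4710.3, 5084, 4203, 3974 and 3206 CPM with EGF. EGF replicate 2 lay inside the saline range, replicate 1 just below it and replicates 3 to 5 clearly below it. This gave a log2 fold change of -0.28 (SE 0.13, unadjusted p = 0.0563), and -0.19 (SE 0.09, unadjusted p = 0.0534) without EGF replicate 5. Eef2, the translocase (chr10:81176631-81182498), was at 2407, 2418, 2202, 2594 and 2529 CPM with saline and 2203, 2446, 2099, 1953 and 1820.4 CPM with EGF. EGF replicates 3 to 5 were again the low ones, and replicates 1 and 2 lay inside the saline range. By edgeR, the log2 fold change was -0.21 (SE 0.10, unadjusted p = 0.0624), and -0.16 (SE 0.08) without replicate 5. The tissue-restricted paralog Eef1a2, known from muscle and neurons, had 0 to 2 counts a library.

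The exchange factor subunits that reload eEF1A with GTP, Eef1b2 and Eef1g, were chosen for mention after their values were seen. They had log2 fold changes of 0.05 (SE 0.19) and 0.13 (SE 0.22) with all libraries and of -0.18 (SE 0.08, unadjusted p = 0.0335) and -0.18 (SE 0.07, unadjusted p = 0.0189) without EGF replicate 5. In that library Eef1b2 was at 1179 CPM, against 566 to 787 CPM in the other 9, and Eef1g at 1026 CPM, against 419.7 to 559 CPM. Eef1g shares 44.2% and Eef1a1 40.4% of its 50-base stretches with other annotated genes, so the counting of both depends on how reads with several matches were treated.

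Genes that modify elongation factors were mixed. Eef2k, the kinase that inhibits eEF2, was at 167, 182, 165, 165 and 198 CPM with saline and 199.9, 203, 191, 183 and 167 CPM with EGF. EGF replicates 1 and 2 were the highest of all 10 libraries, replicates 3 and 4 lay inside the saline range, and replicate 5 lay at its low end. As a log2 fold change, the difference was 0.10 (SE 0.08, unadjusted p = 0.236), and 0.14 (SE 0.07, unadjusted p = 0.0494, adjusted p = 0.316 by edgeR) without EGF replicate 5. Eef1aknmt, a methyltransferase acting on eEF1A, was at 24.7 to 34.6 CPM with saline, 20.9 to 29.1 CPM in EGF replicates 1 to 4 and 12.7 CPM in replicate 5 (log2 fold change -0.43, SE 0.20, unadjusted p = 0.0592, and without replicate 5 -0.29, SE 0.13, unadjusted p = 0.0406, adjusted p = 0.293 by edgeR). Eef2kmt, a methyltransferase acting on eEF2, was at 21.5 to 23.4 CPM with saline, 22.2 to 24.4 CPM in EGF replicates 1 to 4 and 47.8 CPM in replicate 5. Its log2 fold change was 0.33 (SE 0.22), and 0.06 (SE 0.09) without replicate 5.

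Per kilobase of exonic sequence, Eef1a1 stood far above all other factors, at 2059 CPM per kb with saline and 1699 CPM per kb with EGF. Eef2 followed at 731 CPM per kb with saline, then Eef1b2 at 279, Eif5a at 239 and Eef1g at 203. On the same scale the helicase Eif4a1 was at 121 with saline and its paralog Eif4a2 at 37.8, Eif4g2 at 96.0 and Eif4g1 at 87.8, and Eif4e at 14.2, close to Eif4ebp1 at 13.7 and below Eif4ebp2 at 25.2. Leaving out the near-identical pair Eif3j1 and Eif3j2, the eIF3 genes ranged from 144 for Eif3c and 127 for Eif3a to 33.7 for Eif3e and Eif3i. Eif3j2 (0.933) and Eif5a2 (1.17) were the lowest of the factors tested. Of the 50-base stretches of Eif3j2, 91.8% occur in other genes too, and 90.8% in Eif3j1, so its level is uncertain. Within the saline group the factors varied little, with a median coefficient of variation of 6.57% against 12.7% over all genes tested.

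**Figure D4:**
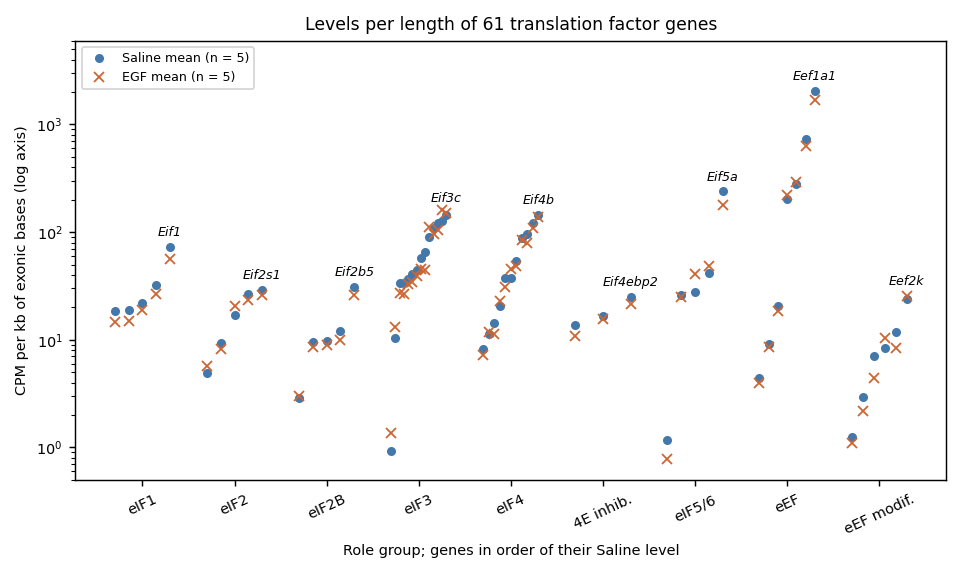
Mean level per kilobase of exonic sequence (vertical axis, CPM per kb, log scale) of the 61 factors tested, placed by role group along the horizontal axis, with dots for the saline mean and crosses for the EGF mean (n = 5 each). The elongation factors Eef1a1 (2059 with saline) and Eef2 (731) lie at the top, and the dot and cross of a gene lie close together beside the distances between genes.

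Of the 67 genes, 6 had too few counts to be tested. Eif2s3y, Eif4e1b and Eif2c5 had 0 counts in every library; the last is a symbol of the Argonaute naming series rather than a translation factor. Eif4ebp3 had 0 to 7 counts, Eef1akmt3 0 to 6 and Eef1a2 0 to 2.

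The genes that held a run of at least 10 C or T in the window around the start site were described beside those that did not. Runs lying mostly or wholly before the start were counted too. Of the 8 with a run, 6 were tested, all 6 lay below 0 and 2 (Eif3l and Eif2b5) reached an unadjusted p under 0.05, with a median log2 fold change of -0.27 (-0.22 without EGF replicate 5). Of the factors with a start site and no run 42 were tested, 28 lay below 0 and 5 were lower at that p, with a median of -0.14 (-0.11 without EGF replicate 5). Over all genes, 2.73% were lower at that p. Their difference was not tested. Among 9 factors listed from general knowledge as having TOP mRNAs (Eef1a1, Eef1b2, Eef1d, Eef1g, Eef2, Eif3e, Eif3f, Eif3h and Eif4b), 7 lay below 0 with all libraries and 9 without EGF replicate 5, and the medians were -0.20 and -0.18. Of those with a RefSeq start site in the table, 5 in all, 2 (Eef1a1 and Eif3f) showed the run.

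Related genes that are not factors by name gave a context. Among the 81 cytosolic ribosomal protein genes tested, 75 lay below 0 and 24 reached an unadjusted p under 0.05, all lower, where 2.73% of all genes were lower at that p. Their median log2 fold change was -0.25 (-0.20 without EGF replicate 5), and 0 passed the adjusted threshold. Termination and recycling factors gave 7 of 11 below 0 (median -0.09). Among them Abce1, which splits the ribosome for reuse, was at 206 to 238 CPM with saline and 168 to 204 CPM with EGF, without overlap (log2 fold change -0.28, SE 0.08, unadjusted p = 0.00427, and -0.25, SE 0.06, without EGF replicate 5). Denr, which clears tRNA from recycled small subunits, was likewise lower in all EGF libraries (-0.23, SE 0.09, unadjusted p = 0.0257, and -0.18, SE 0.07, without EGF replicate 5).

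Of 13 genes listed for mTORC1 and MNK control of translation, 9 lay above 0 (median 0.13), and 12 without EGF replicate 5 (median 0.09). The list mixes activators with inhibitors, so these counts give no direction of control. Of the inhibitors, Tsc1 (0.19, SE 0.10), Tsc2 (0.05, SE 0.08) and Pdcd4 (0.29, SE 0.18) lay above 0 with all libraries. Akt1s1 (-0.13, SE 0.22) and Larp1 (-0.09, SE 0.08) lay below. With all libraries Rptor, the mTORC1 scaffold, was the 1 gene at an unadjusted p under 0.05 (0.35, SE 0.14, unadjusted p = 0.0321 by edgeR), where 6.14% of all genes were higher. Without EGF replicate 5 Rptor (0.20, SE 0.08) and Rheb, the GTPase that activates mTORC1 (0.20, SE 0.08, unadjusted p = 0.0292), were both higher at that p, as were 8.38% of all genes. Of 7 genes for eIF2 kinases and phosphatase subunits 4 lay above 0 and 3 below. At an unadjusted p under 0.05, 1 was higher and 1 lower, where 6.14% and 2.73% of all genes were. These genes, Eif2ak2 and Ppp1cc, are named for their p. Ppp1cc, a phosphatase subunit, was the lower one (-0.25, SE 0.11, unadjusted p = 0.0474 by edgeR, and -0.29, SE 0.10, without EGF replicate 5). Eif2ak2, the double-stranded RNA-activated kinase PKR, was at 71.7 to 85.1 CPM with saline and 86.2 to 159 CPM with EGF, without overlap, EGF replicate 5 being the highest (0.44, SE 0.16, unadjusted p = 0.0207, and 0.24, SE 0.07, without it). The genes of hypusine and diphthamide synthesis, which modify eIF5A and eEF2, gave 5 of 9 below 0 and none at an unadjusted p under 0.05, and 1 lower at that p without EGF replicate 5 (7.39% of all genes were). Mitochondrial translation factors gave 5 of 9 below 0 (median -0.12), and cytosolic aminoacyl-tRNA synthetases 16 of 22 (median -0.18, 3 lower at an unadjusted p under 0.05, beside 2.73% of all genes).

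All 10 markers of HSPCs, the labelled cells, passed the count filter, and their summed level was 1401 to 1668 CPM with saline and 1550.0 to 1822 CPM with EGF. Their saline means were uneven, from 10.2 (Procr), 12.8 (Slamf1) and 14.6 CPM (Ly6a) to 360 (Cd34) and 419 CPM (Kit). All 10 neutrophil markers passed the filter as well, so passing it does not single out HSPCs. Markers of other cells were present too and differed between libraries. The 10 neutrophil markers summed to 1658 to 5783 CPM with saline and 1757 to 2860 CPM with EGF, and 4 of them (Elane, Mpo, Prtn3 and Ctsg, granule genes of early myeloid cells) were lower at an unadjusted p under 0.05 (2.73% of all genes were). The list was split in sign, with 5 below 0 and 5 (S100a9, Ngp, Ltf, Camp and Lcn2) above 0. Without EGF replicate 5 all 10 lay below 0. The 10 plasma and B cell markers, of which 8 were tested, summed to 4484 to 10374 CPM with saline and 1317 to 5753 CPM with EGF. None of the markers of either list was at 0 in all libraries. Erythroid, T and NK cell and monocyte markers summed to at most 225 CPM in any library, and 8 megakaryocyte markers to at most 315 CPM. In bulk libraries a lower level through fewer cells of a type and through less RNA per cell cannot be told apart, and the part of these other cells in the factor values was not tested.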

How the data were processed

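The authors deposited 1 file per library, holding raw counts of reads for each gene with no normalization; STAR, bcl2fastq 2.17 and the builds GRCm38 and mm10 are named in the submitters' processing notes. A Clontech kit with rRNA depletion was used, per the labels' protocols. How reads were counted, and whether by strand, is not given in the sources used here. Beside the genes already marked, Eif2s3x (34.6%), Eif3h (20.3%) and Eif1 (19.2%) share 50-base stretches with other annotated genes. Exonic bases of Eef2kmt (23.0%), Eif5b (16.8%) and Eif1b (12.7%) lie opposite a gene on the other strand. The same limits on counting hold for them. Copies made by PCR could not be told apart, so limits from counts cover counting error only. Every pair of libraries differed beyond counting noise (chi-square divided by its degrees of freedom, 5.94 to 124 over genes with at least 20 counts).

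Counts were tested over all genes with edgeR 4.0.16 in R 4.3.3 (TMM, filterByExpr with a minimum count of 10, quasi-likelihood F test, adjusted p threshold 0.05), and the factor genes were read from that fit. DESeq2 1.42.0 and limma 3.58.1 were alternatives. CPM are TMM-scaled. Members and lists were chosen with earlier results of these data known. Factors described in full were, in each role group, the 2 with the smallest p and the one with the highest mean CPM, the paralogs of a few pairs, and Eef1a1, Eef2, Eif4a1, Eif4e, Eif4ebp1, Eif2s1, Eif5a, Eif6 and Eef2k. Other factors named with a fold change (Eif3d, Eif3f, Eif3h, Eif4a2, Eif5a2, Eef1b2 and Eef1g) were chosen after their values were seen.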

Additional observations from a re-analysis of the deposited data

Results flagged for a closer look

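In each of 50 groups of 5 libraries (the 2 groups of each of the 24 factors described in full and of their summed level), the highest and the lowest library were compared with the nearest of the others. In 7 of them the gap divided by the whole range of the group was above 0.71, Dixon's 95% critical value for 5 samples, which chance passes in about 1 of 20 groups. All 7 came from EGF replicate 5, and none from another library. In that library Eif5b (877 CPM), Eif3a (2401 CPM), Eef2kmt (47.8 CPM) and Eif6 (111 CPM) lay above the other EGF libraries. Eif1 (50.6 CPM), Eif4e (39.2 CPM) and Eif2b2 (7.28 CPM) lay below them. The gap took up between 0.725 (Eif6) and 0.944 (Eif1) of the range.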

How the results depend on the processing

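Across 20 other settings and 2 more chosen after seeing the data, no factor passed an adjusted p under 0.05 in either direction. Over all genes, 1 was higher and 0 lower. The number higher was 0 with library size scaling, 13 in DESeq2, 8 in limma-voom with quality weights, 0 with the replicate block, and 0 without EGF replicates 3 and 4; the number lower was 15 in DESeq2 and 4 with quality weights. Leaving out 1 library gave 0 to 4 higher and 0 to 4 lower. Factors higher at an unadjusted p under 0.05 (1) numbered 0 in DESeq2, in limma-voom, with no low-count filter, with the replicate block and without EGF replicates 3 and 4, and 0 to 2 with 1 library left out. Factors lower at that p (10) numbered 20 with quality weights, 5 with the replicate block, 4 without EGF replicates 3 and 4, and 6 without EGF replicates 3 to 5. The shares over all genes were then 7.55%, 1.83%, 1.58% and 3.14%, against 2.73% in the main fit. Leaving out 1 library gave 5 (EGF replicate 3) to 21 (EGF replicate 5), with 6 without saline replicate 4. Pairing by replicate number was looked at through deviations of log2 CPM from the group mean. These correlated at -0.08 to 0.019 between same-numbered libraries, and 1 of 10 libraries correlated best with its own number. With 5 libraries a group and EGF replicate 5 far from the others, a weak pairing could be missed. Factors wholly above the saline range (0) numbered 1 without EGF replicates 3 to 5 and 0 to 1 with 1 library left out. Those wholly below (7) numbered 7 to 14 (14 without EGF replicate 2, 11 without saline replicate 2). The median log2 fold change of the factors was -0.07 without EGF replicates 3 to 5, and -0.21 to -0.16 with 1 library left out. Of 528 fold changes of the 24 factors described in full, 522 kept their sign. Exceptions were Eif4ebp2 (0.08) and Eif5b (-0.02) without EGF replicates 3 to 5, and Eif6 without EGF replicates 1 (0.04), 3 (0.01), 4 (0.05), and 3 and 4 together (0.14); without EGF replicate 5 Eif6 was at -0.29. Except where fewer libraries were fitted, the cause was not tested.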
